A study of Mus musculus with 6 samples.

Results

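The genes described are 9 rows of the deposited table of 54532 genes, chosen by symbol: 6 interferon-linked genes (Parp9, Dtx3l, Parp14, Parp10, Parp11 and Parp12) and 3 genes for enzymes of the DNA damage response (Parp1, Parp2 and Parp3). All 9 were found and all 9 passed the filter on low values. They were measured by RNA-seq in mouse cells labelled primary lung fibroblasts, in 3 libraries in which calumenin was knocked down (KD) and in 3 libraries called NC. The labels do not spell out NC, do not say by what agent calumenin was reduced, and call the same libraries knockout and wild type in their descriptions. Strain, age, culture and time point are not given, and the labels do not tie replicates to different cultures or animals, so p-values measure the spread between these libraries, which may be technical. The study set out to see what the loss of calumenin does to senescence and fibrosis pathways.

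ADP-ribosyltransferases of the PARP family take ADP-ribose from NAD and attach it to proteins or nucleic acids. Parp1 and Parp2 are activated by DNA breaks and build poly(ADP-ribose) chains that recruit repair factors, and Parp3 acts at DNA breaks but adds single units. Parp10, Parp11, Parp12 and Parp14 are mono-ADP-ribosyltransferases, and their genes, like Parp9 and Dtx3l, are induced by interferon in many cell types. Dtx3l is a ubiquitin ligase of the Deltex family that forms a complex with Parp9, a PARP-family protein with macrodomains, which bind ADP-ribose.

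Parp9 and Dtx3l lie head to head on chromosome 16 with overlapping starts, and Parp14 is the next of the 9 genes along the chromosome. On mm10, Parp9 (ENSMUSG00000022906) occupies 35938470 to 35972605 on the plus strand, Dtx3l (ENSMUSG00000049502) 35926511 to 35939151 on the minus strand, and Parp14 (ENSMUSG00000034422) 35832874 to 35871544 on the minus strand. The gap between Parp14 and Dtx3l is 54966 bases. Parp9 and Dtx3l overlap by 682 bases, and 458 of these are exonic in both genes in GENCODE M21, or 9.40% of the Parp9 gene length and 8% of that of Dtx3l. The strand setting of the counting is not given in the sources used here, so reads from that stretch could be assigned to either gene. Elsewhere, Parp10 (ENSMUSG00000063268) is on chromosome 15 at 76231174 to 76243441, Parp11 (ENSMUSG00000037997) on chromosome 6 at 127446840 to 127494261 and Parp12 (ENSMUSG00000038507) on chromosome 6 at 39086410 to 39118349. Parp1 (ENSMUSG00000026496) is on chromosome 1 at 180568924 to 180601254, Parp2 (ENSMUSG00000036023) on chromosome 14 at 50807841 to 50821301 and Parp3 (ENSMUSG00000023249) on chromosome 9 at 106470322 to 106476949.

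RefSeq promoter windows (GRCm38.p6, 250 bases before to 50 after an annotated start) were matched for 6 of the 9 genes, 7 windows in all. They are shown for Dtx3l, whose window covers part of the overlap with Parp9, for both starts of Parp11, and for Parp12, the gene with the lowest log2 difference. In the Dtx3l window (chr16:35938978-35939277, minus strand) the capitals mark the 141 bases that lie inside both the longest Dtx3l transcript and a Parp9 transcript of GENCODE M21 that starts at 35939011. In the first Parp11 window (chr6:127446590-127446889, plus strand) they mark the matches to the motifs described next. The second Parp11 window (chr6:127453377-127453676, plus strand) and the Parp12 window (chr6:39118300-39118599, minus strand) have no capitals because neither motif was found in them.
Dtx3l: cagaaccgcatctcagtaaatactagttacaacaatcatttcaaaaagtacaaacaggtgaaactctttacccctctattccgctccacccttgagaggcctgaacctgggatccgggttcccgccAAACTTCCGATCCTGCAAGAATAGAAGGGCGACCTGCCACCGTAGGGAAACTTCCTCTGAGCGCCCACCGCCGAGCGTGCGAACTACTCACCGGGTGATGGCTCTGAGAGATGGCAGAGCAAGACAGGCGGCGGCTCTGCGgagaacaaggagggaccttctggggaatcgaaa
Parp11 first start: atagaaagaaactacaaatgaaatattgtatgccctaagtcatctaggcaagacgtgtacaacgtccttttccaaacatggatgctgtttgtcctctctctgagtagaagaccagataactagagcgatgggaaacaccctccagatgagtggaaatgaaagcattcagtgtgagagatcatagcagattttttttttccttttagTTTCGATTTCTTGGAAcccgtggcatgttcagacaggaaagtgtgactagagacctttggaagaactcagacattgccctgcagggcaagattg
Parp11 second start: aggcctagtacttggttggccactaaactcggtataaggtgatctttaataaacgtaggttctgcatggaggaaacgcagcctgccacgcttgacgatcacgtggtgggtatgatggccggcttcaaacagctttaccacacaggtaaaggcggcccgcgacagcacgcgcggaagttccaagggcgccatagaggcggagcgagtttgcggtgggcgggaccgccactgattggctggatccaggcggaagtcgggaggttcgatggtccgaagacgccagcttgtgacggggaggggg
Parp12: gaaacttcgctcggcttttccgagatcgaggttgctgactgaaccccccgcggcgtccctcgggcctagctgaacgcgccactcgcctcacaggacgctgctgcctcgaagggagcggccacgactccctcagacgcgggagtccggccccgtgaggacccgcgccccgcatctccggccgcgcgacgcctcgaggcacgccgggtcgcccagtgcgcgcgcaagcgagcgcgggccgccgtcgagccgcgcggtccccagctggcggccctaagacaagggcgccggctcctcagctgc

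The windows were searched for the core of the interferon-stimulated response element, GAAA and GAAA with any 2 bases between them, on both strands, and for the gamma-activated site TTCNNNGAA, which reads the same on both strands. The first Parp11 window held both: the first motif on the minus strand at positions 207 to 216, counted from 1 at the 5′ end of the window, and the second at positions 214 to 222, so the matches share bases. The interferon motif begins 44 bases before the annotated start. The Dtx3l window, the second Parp11 window and the Parp12, Parp1, Parp2 and Parp3 windows held neither. Among all 32851 windows of this length, 3.44% held the first motif and 8.30% the second. Parp9, Parp10 and Parp14 were not analysed here for motifs. The deposited values are per gene, so the Parp11 starts cannot be told apart.

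The deposited values are FPKM (fragments per kilobase of gene length, scaled to a library size). Reads recovered from them came to 16191536 to 18312888 per KD library and 15907164 to 16280183 per NC library. The size used in the scaling was 1.01 to 1.02 times the recovered reads in KD libraries and 0.987 to 0.996 times in NC libraries. Calu was at 13.4 ± 1.07 FPKM in KD and 224 ± 3.43 FPKM in NC (SD, n = 3 each), a log2(FPKM + 1) difference of -3.96 (limma adjusted p = 1.28e-06), so the labels hold for the targeted gene. Of 10 fibroblast markers 7 passed the filter, Col1a1, Col1a2, Vim and Pdgfrb among them, but Lum had 0 reads in all libraries, Dcn had 0 in KD and 3 in NC, and Thy1 had 16 in KD and 18 in NC. By limma 2 of the 7 were higher, Col1a1 (log2 difference 0.92) and Pdgfra (0.59), and 2 lower, Col3a1 (-1.11) and Pdgfrb (-0.28), and the 10 summed to 1451 to 1508 FPKM in KD and 1346 to 1372 FPKM in NC. The pan-leukocyte gene Ptprc had 6 reads in KD and 8 in NC. Of 8 immune markers 2 passed the filter, and the 8 summed to 3.19 to 4.98 FPKM in KD and 4.76 to 5.60 FPKM in NC, with Adgre1 at 0 reads. Cd68 (limma adjusted p = 0.213) and Lyz2 (0.996) did not pass, and Cd68 was called lower without KD1 (-0.56, adjusted p = 0.0291). The part of these marker shifts in the results was not tested. Of 6 epithelial and 4 endothelial markers 0 passed, with sums of at most 0.887 FPKM in KD and 0.470 FPKM in NC, and of 4 smooth muscle or pericyte markers 1, Des, passed. KD1 stood apart: the chi-square per degree of freedom between recovered reads was 17.7 and 29.4 for KD1 against KD2 and KD3, 4.45 for KD2 against KD3, and 2.31 to 3.18 between NC libraries. Mitochondrial genes took 2.56% of its reads and 1.60% to 1.97% of the reads of the other 5. Spearman's rho between GC content and deviation from the mean of all 6 libraries was -0.41 in KD1, 0.34 in KD2 and 0.49 in KD3. It was -0.17 in NC1, -0.24 in NC2 and -0.04 in NC3. These values are taken across genes, which are not independent replicates. Without KD1, the remaining KD libraries had positive and the NC libraries negative rho, so the GC trend was aligned with group. The part of GC content in calls made only without KD1 was not tested.

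All 6 interferon-linked genes fell in KD, and of the DNA damage genes Parp3 fell by less and Parp1 and Parp2 did not pass the threshold. Differences were tested with limma on log2(FPKM + 1) in the 12299 genes that averaged 1 FPKM or more, at a Benjamini-Hochberg adjusted p of 0.05. By this test 6 of 6 interferon-linked genes were lower, where 13.6% of all tested genes were lower. Of the DNA damage genes 1 of 3, Parp3, was lower and 0 were higher, where 10.9% of all tested genes were higher; 0 of the 3 were higher at an unadjusted p under 0.05 or with voom. The log2 differences of the interferon-linked genes ran from -2.36 to -1.23 with a median of -1.54, those of the DNA damage genes from -0.33 to -0.04 with a median of -0.10, and the median over all tested genes was 0.01. All 3 KD libraries lay below all 3 NC libraries for each of the 6 interferon-linked genes and for Parp3, which held for 22.9% of all tested genes. Without KD1 the counts were again 6 of 6 and 1 of 3 lower, where 21.5% of all genes were lower, and the interferon-linked genes differed by -2.43 to -1.16 (limma adjusted p = 3.29e-06 to 0.000106). In bulk RNA, fewer cells expressing a gene and less RNA per cell cannot be told apart.

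**Figure D1:**
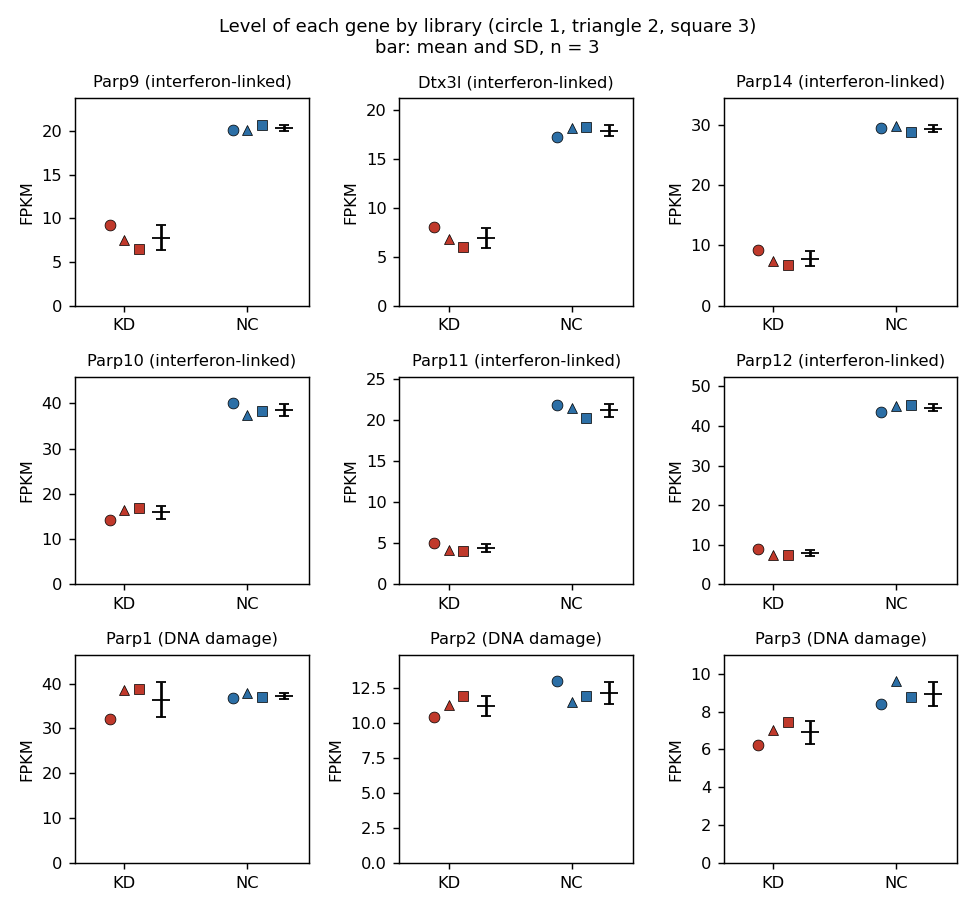
FPKM of each of the 9 genes (vertical axis, from 0) in each KD library (red) and NC library (blue), with marker shapes for replicates 1 to 3 and the mean and SD beside them. The KD points lie below the NC points for the 6 interferon-linked genes and Parp3, and overlap them for Parp1 and Parp2.

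Parp9 and Dtx3l, the partners with overlapping starts on opposite strands, fell by nearly the same amount. Parp9 had 9.27, 7.56 and 6.47 FPKM in KD1, KD2 and KD3, against 20.1, 20.1 and 20.7 FPKM in NC1, NC2 and NC3. Dtx3l had 8.06, 6.81 and 5.98 FPKM in the KD libraries, against 17.3, 18.2 and 18.3 FPKM in the NC libraries. For both, KD1 was the highest KD library and the groups did not overlap. Parp9 averaged 7.77 ± 1.41 FPKM in KD and 20.3 ± 0.34 FPKM in NC (SD, n = 3 each), 38.3% of the NC level, with a log2 difference of -1.29 (SE 0.11, limma adjusted p = 0.000619). Dtx3l averaged 6.95 ± 1.05 FPKM in KD and 17.9 ± 0.55 FPKM in NC, 38.8% of the NC level, with a log2 difference of -1.26 (SE 0.10, limma adjusted p = 0.000396). These values rested on 533 to 836 Parp9 reads and 579 to 854 Dtx3l reads per KD library.

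The levels of Dtx3l and Parp9 within a library stood in a like ratio in both groups. The log2 ratio of Dtx3l to Parp9 (FPKM + 1) was -0.18, -0.13 and -0.10 in KD1, KD2 and KD3, against -0.21, -0.13 and -0.17 in NC1, NC2 and NC3. The groups overlapped, with a difference of 0.03 (two-sided exact permutation p = 0.5; with 3 libraries against 3 the smallest possible is 0.1). The shared exonic bases are counted in the length of both genes, and reads from them could be assigned to either gene. Their part in the like ratios was not tested.

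Parp14, which carries macrodomains beside its catalytic domain and is known for its part in interleukin-4 signalling through STAT6, fell to 26.7% of the NC level. It had 9.28, 7.40 and 6.82 FPKM in KD1, KD2 and KD3, against 29.4, 29.8 and 28.8 FPKM in NC1, NC2 and NC3. KD1 was again the highest KD library, and no KD library came near an NC library. The mean was 7.83 ± 1.29 FPKM in KD and 29.3 ± 0.54 FPKM in NC (SD, n = 3 each), a 3.75-fold fall, with a log2 difference of -1.79 (SE 0.10, limma adjusted p = 0.000124). The log2 ratio of Parp14 to Dtx3l was 0.15 ± 0.04 in KD and 0.68 ± 0.05 in NC, without overlap, a difference of -0.53 (exact permutation p = 0.1, the smallest possible).

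The genes on either side of the block did not pass the threshold. The importin gene Kpna1 begins 6145 bases beyond Parp9 and had 7.54 ± 1.35 FPKM in KD and 9.86 ± 0.36 FPKM in NC (SD, n = 3 each), a log2 difference of -0.36 (limma adjusted p = 0.0624). Kpna1 passed without KD1 (adjusted p = 0.00251). Further out, Wdr5b differed by 0.16 (adjusted p = 0.254) and Fam162a by -0.17 (adjusted p = 0.376), and on the Parp14 side Dirc2 differed by 0.18 (adjusted p = 0.164). Hspbap1, which ends 4397 bases before Parp14, was below the filter at 0.707 FPKM in KD and 0.772 FPKM in NC, and Sema5b had 0 reads. The 95% intervals of the 4 tested neighbours lay above those of Parp9, Dtx3l and Parp14.

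**Figure D2:**
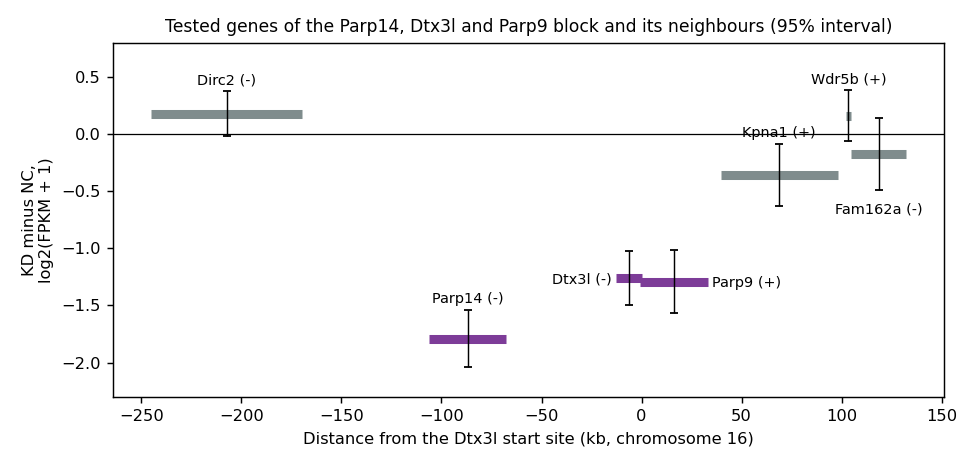
Difference between KD and NC (vertical axis, log2(FPKM + 1), with 95% intervals) of the tested genes around Parp14, Dtx3l and Parp9 on chromosome 16, drawn to scale by distance from the Dtx3l start site (horizontal axis, kb), with strand in brackets. The 3 genes of the block (purple) lie between -1.79 and -1.26, and their neighbours (grey) between -0.36 and 0.18.

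The 3 mono-ADP-ribosyltransferase genes on other chromosomes also fell, Parp12 and Parp11 by the most of all 9. Parp12 encodes a protein with CCCH zinc fingers that acts against several viruses. Parp12 had 8.81, 7.53 and 7.44 FPKM in KD1, KD2 and KD3, against 43.6, 45.1 and 45.3 FPKM in NC1, NC2 and NC3. From the highest of the 9 genes in NC it fell into the middle of them in KD. It averaged 7.93 ± 0.77 FPKM in KD and 44.7 ± 0.94 FPKM in NC (SD, n = 3 each), a 5.64-fold fall, with a log2 difference of -2.36 (SE 0.07, limma adjusted p = 1.04e-05). Among the 12299 tested genes it ranked 28 from the lowest log2 difference, Parp11 ranked 44, Parp14 58, Parp9 137, Dtx3l 148 and Parp10 152.

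Parp11, whose human protein acts on the ubiquitin ligase that sets the stability of the type I interferon receptor, had 5.05, 4.20 and 4.09 FPKM in KD1, KD2 and KD3, against 21.8, 21.5 and 20.3 FPKM in NC1, NC2 and NC3. It averaged 4.45 ± 0.52 FPKM in KD, the lowest of the 9, and 21.2 ± 0.80 FPKM in NC (SD, n = 3 each). The log2 difference was -2.03 (SE 0.08, limma adjusted p = 2.94e-05), a 4.76-fold fall. Parp11 is the gene whose first promoter window held both motifs. Parp11, Parp12 and Calu itself are on chromosome 6, where the median difference of tested genes was -0.22. Medians of the other chromosomes with at least 50 tested genes ran from -0.19 (chromosome 14, with Parp2) to 0.17 (chromosome 8). That of chromosome 1, with Parp1, was -0.15. With chromosome medians removed the differences were -1.81 for Parp11 and -2.14 for Parp12.

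Parp10, a mono-ADP-ribosyltransferase with ubiquitin-binding motifs, had the log2 difference closest to 0 of the 6, within the 95% intervals of Parp9 and Dtx3l. It had 14.2, 16.5 and 17.0 FPKM in KD1, KD2 and KD3, against 40.0, 37.5 and 38.2 FPKM in NC1, NC2 and NC3. Unlike in the other 5, KD1 was its lowest KD library. It averaged 15.9 ± 1.46 FPKM in KD and 38.6 ± 1.30 FPKM in NC (SD, n = 3 each), 41.2% of the NC level, with a log2 difference of -1.23 (SE 0.08, limma adjusted p = 0.000165). The mean GC content of Parp10 transcripts was 56.3%, against 46.5% to 48.4% for the other 5 genes. With a GC and length trend removed all 6 were still lower, with differences of -2.28 for Parp12 to -1.19 for Dtx3l and -1.29 for Parp10.

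Of the genes of the DNA damage enzymes, Parp1 and Parp2 did not pass the threshold and Parp3 was lower in KD. Parp1 had 32.0, 38.5 and 38.8 FPKM in KD1, KD2 and KD3, against 36.8, 38.0 and 37.0 FPKM in NC1, NC2 and NC3. KD1 was the lowest of the 6 libraries and KD2 and KD3 were the highest, so the groups overlapped. The mean was 36.4 ± 3.84 FPKM in KD and 37.3 ± 0.63 FPKM in NC (SD, n = 3 each), and the log2 difference of -0.04 (95% interval -0.23 to 0.16, limma adjusted p = 0.786) did not pass. Without KD1 the difference was 0.05 (adjusted p = 0.278).

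Parp2 had 10.4, 11.2 and 11.9 FPKM in KD1, KD2 and KD3, against 13.0, 11.5 and 11.9 FPKM in NC1, NC2 and NC3. The groups overlapped, and the log2 difference was -0.10 (95% interval -0.28 to 0.07, limma adjusted p = 0.34). The intervals of Parp1 and Parp2 leave room for small changes and do not reach the difference of any interferon-linked gene. Parp3 had 6.25, 7.05 and 7.45 FPKM in KD1, KD2 and KD3, against 8.40, 9.61 and 8.77 FPKM in NC1, NC2 and NC3. It was the lowest of the 9 in NC and fell to 77.5% of that level, a log2 difference of -0.33 (SE 0.08, limma adjusted p = 0.0299). The Parp3 call ended without NC1, NC2, NC3 or KD2 (adjusted p = 0.0653 to 0.113), with no filter (0.0665) and with array weights (0.0844), and held without KD1 (0.0244).

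**Figure D3:**
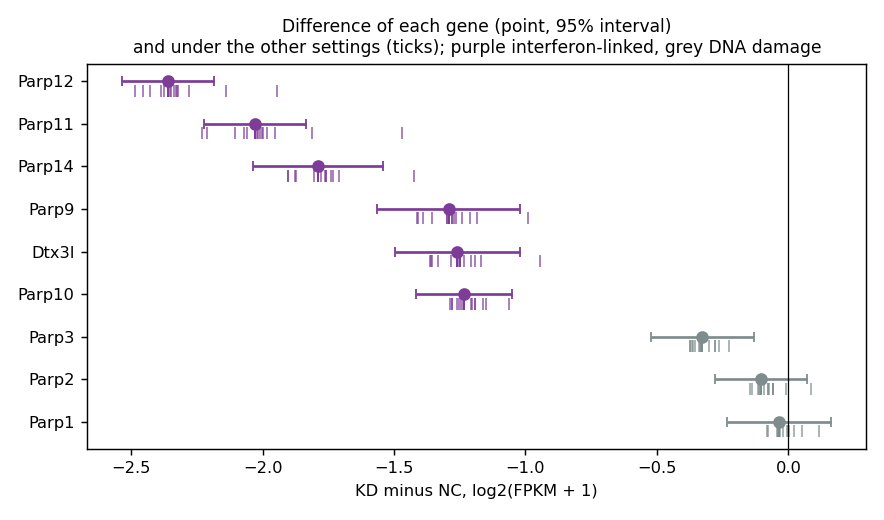
Difference between KD and NC (horizontal axis, log2(FPKM + 1)) of the 9 genes, ordered by size, with 95% intervals from limma and, as ticks under each point, the value under 21 other settings. Every tick of the 6 interferon-linked genes (purple) lies at -0.94 or lower, while ticks of Parp1 and Parp2 (grey) fall on both sides of 0.

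The order of levels among the 9 genes differed between the groups. In KD, Parp1 was the highest at 36.4 FPKM, followed by Parp10 at 15.9 and Parp2 at 11.2 FPKM, each clear of the next. Parp12, Parp14, Parp9, Dtx3l and Parp3 then followed at 7.93 to 6.92 FPKM, each overlapping the next in its range over libraries, and Parp11 was the lowest. In NC, Parp12 was the highest at 44.7 FPKM, Parp10 (38.6 FPKM) and Parp1 (37.3 FPKM) overlapped, and Parp14 (29.3 FPKM) was clear of both sides. Parp11 and Parp9 overlapped at 21.2 and 20.3 FPKM, and Dtx3l, Parp2 and Parp3 followed in that order without overlap. The coefficient of variation of the 6 interferon-linked genes was 9.20% to 18.2% over KD libraries and 1.68% to 3.76% over NC libraries.

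The tested genes whose profile over the 6 libraries was most like that of a member were found by the root-mean-square difference of centred log2(FPKM + 1) values. Among the genes close to Parp14 were Herc6, the mouse ligase for the ubiquitin-like protein Isg15 (0.043), Trim30d (0.058), the RNA helicase gene Dhx58 (0.067) and the double-stranded RNA receptor gene Tlr3 (0.067). Closest to Dtx3l was Parp9 (0.036), followed by Pnpt1 (0.049), Oas3 (0.050), Piwil4 (0.055) and Ascc3 (0.058). Closest to Parp1 were Aars (0.019), Mprip (0.020), Pcgf2 (0.021), Zc3h7b (0.024) and Pgam1 (0.025), none of which passed the threshold. The measure takes in both the difference between the groups and the place of each library within its group.

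Most of the tested interferon transcription factor genes fell, while the genes of the receptors and their kinases did not pass the threshold. Of 5 tested factor genes 4 fell and 0 rose, where 13.6% of all tested genes fell and 10.9% rose, with a median log2 difference of -0.45; 1, Irf3, was higher at an unadjusted p under 0.05 and 0 with voom. Irf7, which amplifies type I interferon production, had 11.4, 12.9 and 13.2 FPKM in KD1, KD2 and KD3, against 101, 96.3 and 103 FPKM in NC1, NC2 and NC3 (log2 difference -2.91, limma adjusted p = 3.31e-06). Stat2, a subunit of the interferon-stimulated gene factor complex, fell by 1.47 on the log2 scale (limma adjusted p = 2.31e-05). The falls of Irf1 (-0.45, adjusted p = 0.00438) and Irf9 (-0.44, adjusted p = 0.00531), the DNA-binding subunit of that complex, were smaller. Irf3 had 9.43 ± 1.98 FPKM in KD and 7.11 ± 0.29 FPKM in NC (SD, n = 3 each, limma adjusted p = 0.12) and passed without KD1 (0.00224).

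Of 7 receptor and kinase genes (Ifnar1, Ifnar2, Ifngr1, Ifngr2, Jak1, Jak2 and Tyk2) limma called 0 lower and 0 higher. At an unadjusted p under 0.05, 2 were lower and 1 higher, and voom called 0 lower and 1 higher. Jak1 had 37.8 ± 2.50 FPKM in KD and 39.5 ± 0.56 FPKM in NC (SD, n = 3 each), a log2 difference of -0.06 (95% interval -0.21 to 0.09), and Ifngr2 had 14.1 FPKM in KD and 16.2 FPKM in NC (-0.18, interval -0.35 to -0.02, adjusted p = 0.098). Without KD1, Ifnar2 (adjusted p = 0.00722) and Tyk2 (0.00335) were called higher and Jak2 (0.0235) lower. Of 5 feedback genes 3 fell and 0 rose, where 13.6% of all tested genes fell, with a median log2 difference of -0.50 (0 higher also at an unadjusted p under 0.05 and with voom): Usp18, which restrains the type I receptor, had 12.9 ± 1.62 FPKM in KD and 68.9 ± 1.02 FPKM in NC, Isg15 had 44.4 ± 7.63 FPKM in KD and 195 ± 8.70 FPKM in NC, and Socs1 had 1.90 ± 0.23 FPKM in KD and 3.10 ± 0.30 FPKM in NC (SD, n = 3 each). Their limma adjusted p were 2.21e-05, 0.000108 and 0.014, and the Socs1 call ended without NC2, NC3 or KD2 (highest 0.0636) and with array weights. Without KD1, Socs3 was called higher (0.00131).

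Most tested genes of a short list of antiviral effectors were lower. Of 4 tested genes 3 fell and 0 rose, where 13.6% of all tested genes fell, with 0 also higher at an unadjusted p under 0.05 and with voom, and the median log2 difference was -0.40. Trim25, a ubiquitin ligase that works with the zinc-finger antiviral protein, had 45.6 ± 2.28 FPKM in KD and 83.5 ± 1.22 FPKM in NC (SD, n = 3 each), a log2 difference of -0.86 (limma adjusted p = 0.000193). Zc3hav1, which encodes that protein and is itself the catalytically inactive PARP family member known as PARP13, had 46.3 ± 2.37 FPKM in KD and 59.6 ± 2.08 FPKM in NC, a log2 difference of -0.36 (adjusted p = 0.00761). Zc3hav1 is on chromosome 6, and its call held with each library left out and ended with chromosome medians removed. Isg20, an RNA exonuclease gene, also passed (-0.45, adjusted p = 0.0147). The Isg20 call ended without NC1, NC2, NC3 or KD2 (highest adjusted p = 0.0616), so 2 of the 4 fell when any of these was left out.

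The remaining ADP-ribosyltransferases showed small differences in both directions. Of 7 tested, 2 fell (Zc3hav1, as given above, and the tankyrase gene Tnks2) and 1 rose (Parp16, an enzyme of the endoplasmic reticulum membrane), where 13.6% and 10.9% of all tested genes did so; the median log2 difference was -0.04. Tnks2 had 21.7 ± 2.93 FPKM in KD and 27.6 ± 0.28 FPKM in NC (SD, n = 3 each, log2 difference -0.34, limma adjusted p = 0.0396). Parp16 had 6.74 ± 0.51 FPKM in KD and 5.17 ± 0.30 FPKM in NC (0.33, adjusted p = 0.0226). The Tnks2 call ended when NC1, NC2, NC3, KD2 or KD3 was left out (highest adjusted p = 0.132), and also with no filter, equal totals, quantile scaling and the replicate block. The Parp16 call ended without NC1, NC2, NC3 or KD3 (highest 0.0903) and with no filter. With chromosome medians removed it was the Zc3hav1 call that ended. Tiparp, Parp4, Parp6 and Tnks did not pass, Tiparp was called lower without KD1 (0.0382), and Parp8 had 0 reads.

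Partners of Parp1 in break repair did not pass either. Of 12 tested genes (among them the Parp1 cofactor gene Hpf1, the scaffold gene Xrcc1 and the ligase gene Lig3) limma called 0 in either direction, 0 had an unadjusted p under 0.05 and voom called 0, and the median log2 difference was -0.02. Hpf1 had 14.2 ± 1.11 FPKM in KD and 14.0 ± 0.61 FPKM in NC (SD, n = 3 each), a difference of 0.02 (95% interval -0.15 to 0.19). The Ku80 gene Xrcc5 had 15.8 ± 1.71 FPKM in KD and 18.4 ± 1.16 FPKM in NC (-0.21, limma adjusted p = 0.135). Without KD1, Xrcc5 was called lower (adjusted p = 0.0292) and Xrcc1 higher (0.0186).

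Of 5 tested genes for enzymes that remove ADP-ribose 1, Oard1, rose and 0 fell, where 10.9% of all tested genes rose and 13.6% fell. At an unadjusted p under 0.05, 3 were higher and 1 lower, voom called 1 higher and 0 lower, and the median log2 difference was 0.34. Oard1, which removes terminal ADP-ribose, had 23.2 ± 1.54 FPKM in KD and 17.8 ± 0.98 FPKM in NC (SD, n = 3 each, log2 difference 0.36, limma adjusted p = 0.013), a call that ended without NC2 or KD2 (highest 0.0605) and with chromosome medians removed. Macrod1 was also called higher without NC3 (0.0162), and without KD1 Adprh (0.0103) and Adprhl2 (0.00162) were called higher and Parg (0.0212) lower. The NAD synthesis list also holds Nadk, the gene of NAD kinase, which uses NAD rather than making it. Of the 7 tested genes of this list 2 fell and 1 rose, against the same 13.6% and 10.9% of all tested genes. Their median log2 difference was 0.06. Nampt, the rate-limiting enzyme of NAD salvage from nicotinamide, had 82.5, 65.8 and 64.8 FPKM in KD1, KD2 and KD3, against 128, 130 and 118 FPKM in NC1, NC2 and NC3 (log2 difference -0.81, limma adjusted p = 0.00265). Every KD library was below every NC library, and the Nampt call held with each library left out. Nadk (80.4 FPKM in KD and 96.4 FPKM in NC, adjusted p = 0.0127) lost its call without NC1, NC2 or NC3 (highest 0.073). Naprt (3.10 FPKM in KD and 1.93 FPKM in NC, adjusted p = 0.0342) lost its call without NC1, NC2, NC3, KD2 or KD3 (highest 0.105), with no filter and with array weights.

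Of the other Deltex genes, Dtx2, Dtx3 and Dtx4 were tested and limma called 0 of 3 in either direction, with 0 lower and 2 higher at an unadjusted p under 0.05 and 0 lower and 1 higher with voom. Dtx3 had 13.9 ± 2.05 FPKM in KD and 11.2 ± 0.41 FPKM in NC (SD, n = 3 each, log2 difference 0.28, limma adjusted p = 0.0991), and Dtx4 had 11.3 ± 0.91 FPKM in KD and 9.45 ± 0.62 FPKM in NC (0.23, adjusted p = 0.0765). Both were called higher without KD1 (adjusted p = 0.00185 and 0.0256). Their 95% intervals lay above 0, whereas that of Dtx3l ran from -1.50 to -1.02. Dtx1 had 0 reads.

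**Figure D4:**
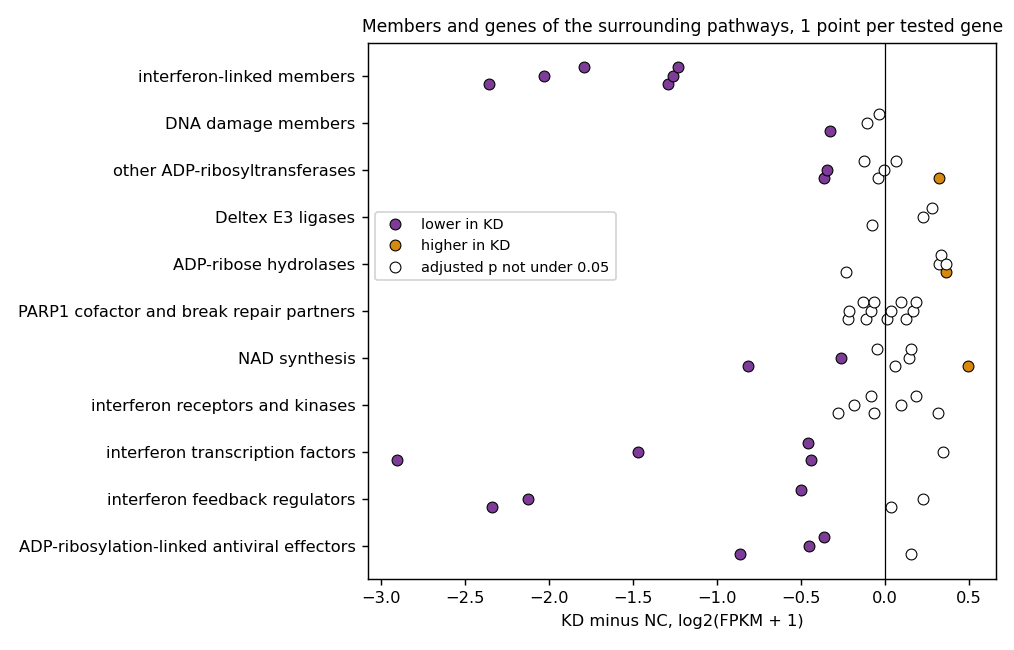
Difference between KD and NC (horizontal axis, log2(FPKM + 1)) of each tested gene of the 9 members and of the surrounding pathways, 1 row per list, with genes lower in KD in purple, higher in orange and those with an adjusted p of 0.05 or more in white. The falls past -1 are in the rows of the interferon-linked members, the interferon transcription factors and the interferon feedback regulators.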

How the data were processed

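For 6 libraries and 54532 genes, the deposited table gives FPKM together with gene positions and lengths. Paired-end reads were aligned with HISAT2 2.0.5, per the labels' protocols, to mm10, per the submitters' processing notes. Which tool counted reads, whether it used strand, and on which annotation, is not given in the sources used here. Of 54409 gene identifiers shared with GENCODE M21, 98.3% had the same coordinates, including all 9 members. Multiplied by gene length, 100% of a library's values were whole multiples (within 0.01) of what a single read is worth, and reads were recovered in this way.

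The fit used limma 3.58.1 (R 4.3.3) with group as the only term on log2(FPKM + 1), which understates changes of low genes. Variances were moderated along a mean trend, and p-values were adjusted by Benjamini-Hochberg at 0.05 over genes averaging 1 FPKM or more. Voom on the recovered reads called 1623 genes lower and 1837 higher. Further steps ran in Python 3.11.15 (scipy 1.17.1), and the code was tested on simulated data. Members, lists, named-gene rule and alternatives were chosen with earlier results of these data known. Named genes were the 9 members, Calu, the 3 nearest protein-coding genes on each side of the Parp14 to Parp9 block, the 5 closest profiles to Parp14, Dtx3l and Parp1, and from each list the 4 largest calls, every call where there were at most 5, or the 2 highest genes where none was called; Irf3 and genes called only without 1 library were named after their values were seen. Alternatives were other pseudocounts, filters and scalings, no trend, robust moderation, array weights, voom on recovered reads, a replicate block, protein-coding genes only, chromosome medians removed, a GC and length trend removed (splines with 5 degrees of freedom), and each library left out. Protein sequences were not used here, so the planned comparison of catalytic residues was not run. Some genes of the planned lists and closest profiles are not reported here and are left out of the list counts.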

Additional observations from a re-analysis of the deposited data

How the results depend on the processing

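Each member was recomputed under 21 alternatives. Of these, median-of-ratios scaling returned the same values as the main fit for every member, so it was not a separate check. Parp9, Dtx3l, Parp14, Parp10, Parp11 and Parp12 kept their direction and passed in all 21, with the smallest differences at a pseudocount of 5 FPKM (-0.99, -0.94, -1.42, -1.06, -1.47 and -1.94). The difference of Parp1 changed sign with quantile scaling (0.021), voom (0.00144), chromosome medians removed (0.12) and without KD replicate 1 (0.052), and that of Parp2 with chromosome medians removed (0.086), none of them past the threshold. Parp3 did not pass with no filter (-0.33) or array weights (-0.28), so that 0 DNA damage genes were lower under each; the cause was not tested. With each library left out in turn the differences ran from -1.41 to -1.18 for Parp9, -1.36 to -1.17 for Dtx3l, -1.90 to -1.71 for Parp14, -1.28 to -1.16 for Parp10, -2.11 to -1.98 for Parp11, -2.43 to -2.32 for Parp12, -0.082 to 0.052 for Parp1, -0.15 to -0.057 for Parp2 and -0.38 to -0.27 for Parp3, with 6 interferon-linked and 0 to 1 DNA damage genes lower.

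Over all genes, 1672 were lower and 1344 higher; leaving out 1 library gave 923 to 2648 lower and 590 to 2572 higher, the most without KD1, and a GC and length trend removed gave 2393 higher. Counts over the lists with 1 library left out were 1 to 3 lower and 0 to 1 higher for other ADP-ribosyltransferases. They were 0 to 2 higher for Deltex genes and 0 to 1 lower and 0 to 3 higher for hydrolases. Parp1 partners gave 0 to 1 lower and 0 to 1 higher, and NAD synthesis 1 to 2 lower and 0 to 1 higher. Receptors and kinases gave 0 to 1 lower and 0 to 2 higher. Transcription factors gave 4 lower each time and 0 to 1 higher. Feedback genes gave 2 to 3 lower and 0 to 1 higher, and antiviral effectors 2 to 3 lower. With chromosome medians removed, other ADP-ribosyltransferases numbered 1 lower, Deltex genes 1 higher, hydrolases 0 higher, Parp1 partners 1 lower, receptors and kinases 1 lower, and antiviral effectors 2 lower and 1 higher. The labels do not say whether the replicate numbers pair the samples. Deviations of same-numbered libraries correlated at 0.08 (KD1 and NC1), -0.04 (KD2 and NC2) and 0.15 (KD3 and NC3) over 12299 genes. Pairs with different numbers ran from -0.16 (KD1 and NC3) to 0.08 (KD1 and NC2). Deviations within groups this small cannot settle whether a batch was shared. With a replicate block no member call changed, 1383 genes were lower and 1050 higher, and other ADP-ribosyltransferases numbered 1 lower.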
